A study of Mus musculus with 29 samples.

Results

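miR-151-5p (mmu-miR-151-5p in the files) and miR-151-3p (mmu-miR-151-3p) are the mature microRNAs cut from the 2 sides, or arms, of a single hairpin precursor, and their counts are described here in serum and in tibialis anterior, a muscle of the lower leg, of C57BL/6 mice. The members are the 2 of 695 miRNAs with complete counts in the deposited table that carry this name, and the table holds 1183 miRNAs in all. The groups used were old serum (n = 4) and old muscle (n = 5) from mice of 24 months, disuse serum and disuse muscle (n = 5 each) from mice of 6 months in a model of disuse-induced atrophy, and young serum and young muscle (n = 5 each) from control mice of 6 months. The age of the old mice was the only difference that the labels give between old and young, and the labels do not give how disuse was imposed. Samples are numbered within a group, but no label says that each came from its own animal. A p-value here therefore speaks only to the spread among the libraries, part or all of which may be technical. Both arms were chosen by their counts in these libraries, among them the lower miR-151-5p of old than of young serum. Comparisons of the arms that contain old serum are therefore given as a description with no test. The young serum libraries entered that choice too, so tests that use them are not independent of it.

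miRNAs guide Argonaute proteins to partly complementary messenger RNAs, and the seed, bases 2 to 8, leads that pairing. After Dicer cuts a hairpin, usually one arm is loaded into Argonaute and kept while its partner is lost, so most hairpins leave counts on one side only. The gene Mir151 lies at chr15:73254815-73254882 on the minus strand of mm10 (GRCm38), a stretch of 68 bases inside Ptk2 on the same strand, where it overlaps none of the annotated Ptk2 exons. Ptk2 encodes focal adhesion kinase, a tyrosine kinase of the sites where cells, muscle fibres included, attach to the matrix. An antisense RNA gene, 1700085D07Rik, is annotated over the same bases on the plus strand. miR-28 and miR-708 are counted to the same family of hairpins. In human liver cancer cells, miR-151 has been studied together with its host kinase as a promoter of cell migration.

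Sequences are shown for the 2 arms of let-7d, whose muscle profiles came nearest to those of the 2 miR-151 arms, for miR-99a-5p and miR-99b-5p, which came nearest in serum, and for the arms of the relative miR-28a. They are mature sequences from RefSeq on GRCm38.p6, written 5′ to 3′ with the seed in capitals. Of 20 miRNAs looked up, 15 had an entry. The miR-151 arms had none, so their seeds are not shown and could not be compared with others.
let-7d-5p: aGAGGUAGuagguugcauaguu
let-7d-3p: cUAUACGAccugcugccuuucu
miR-99a-5p: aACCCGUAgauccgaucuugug
miR-99b-5p: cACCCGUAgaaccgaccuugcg
miR-28a-5p: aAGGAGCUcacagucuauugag
miR-28a-3p: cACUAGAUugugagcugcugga
miR-99a-5p and miR-99b-5p share their seed, and the other 4 seeds differ.

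Depth sets the precision of every value. Serum libraries held 45176 to 309133 counts and muscle libraries 254624 to 5943445. The labelled tissues carried their defining miRNAs: miR-133a-3p of striated muscle averaged 2227 to 2540 CPM (counts scaled to a library of 1000000 counts) over the 3 serum groups and 432200 to 477700 CPM over the 3 muscle groups, while miR-451a of red cells averaged 6624 to 12440 CPM in serum and 37.3 to 56.3 CPM in muscle.

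Together the 2 arms made up a like part of the counts in both sources: 0.507% ± 0.0942 of the counts of old serum (SD, n = 4), 0.538% ± 0.0854 of disuse serum and 0.646% ± 0.161 of young serum (n = 5 each), and 0.533% ± 0.0584 of old muscle, 0.610% ± 0.0333 of disuse muscle and 0.628% ± 0.109 of young muscle (n = 5 each). The arms were far from like each other. In serum, miR-151-3p ranked between place 17 and place 38 of all miRNAs in a library, and miR-151-5p between 42 and 109. In muscle the ranks were close, 27 to 37 for miR-151-3p and 27 to 40 for miR-151-5p.

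The comparison of serum with muscle asks how the circulating arms relate to those of the tissue. miR-151-5p was lower in serum in disuse and young samples, and by description in old samples. miR-151-3p did not pass in the disuse and young samples, and in the old samples its serum libraries all lay above those of muscle. In these comparisons CPM are scaled by TMM, edgeR's factors for library composition, over the libraries compared. miR-151-5p averaged 291 ± 140 CPM in old serum (n = 4) and 3562 ± 888 CPM in old muscle (n = 5), a log2 fold change of -3.66 ± 0.35 (SE, a description). In disuse serum it averaged 452 ± 220 CPM, against 3580 ± 662 CPM in muscle of the disuse group (n = 5 for both), and the log2 fold change was -2.96 ± 0.27 (edgeR's quasi-likelihood test, adjusted p = 1.99e-08 over 192 miRNAs). In young serum it averaged 812 ± 560 CPM, against 3365 ± 1472 CPM in young muscle (n = 5 for both), and the log2 fold change was -2.04 ± 0.41 (edgeR, adjusted p = 1.40e-04). The serum and muscle libraries did not overlap in the old and in the disuse groups. How many of all tested miRNAs separate in this way was not counted, here or for miR-151-3p. For miR-151-5p the libraries overlapped in the young groups.

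Most miRNAs differed between serum and muscle. Of the miRNAs tested, 69.3% passed an adjusted p of 0.05 between old serum and old muscle, 44.6% as lower, 86.5% between disuse serum and disuse muscle, 48.4% as lower, and 76.3% between young serum and young muscle, 43.7% as lower. In the old groups 56 of 316 miRNAs had a lower log2 fold change than miR-151-5p, in the disuse groups 38 of 192 and in the young groups 55 of 190. The median log2 fold changes of all tested miRNAs were -0.87, -0.36 and -0.34 in the old, disuse and young comparisons. RNA extraction and RNA input differ with the source in every library, so these and the source cannot be told apart.

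miR-151-3p averaged 4022 ± 563 CPM in old serum (n = 4) and 2493 ± 489 CPM in old muscle (n = 5), a log2 fold change of 0.69 ± 0.23 (SE, a description), with all 4 serum libraries above all 5 of muscle; in this comparison 24.7% of miRNAs passed as higher, against 38% in the disuse and 32.6% in the young samples. In disuse serum it averaged 4107 ± 469 CPM, against 3635 ± 711 CPM in disuse muscle (log2 fold change 0.18 ± 0.16, edgeR adjusted p = 0.307, n = 5 each). In young serum it averaged 5015 ± 2271 CPM, against 4312 ± 1246 CPM in young muscle (0.22 ± 0.33, edgeR adjusted p = 0.575, n = 5 each). These sizes move with the scaling. With library totals alone, which put the median of all miRNAs at -0.48 in the old, 0.13 in the disuse and 0.17 in the young comparison, miR-151-3p was at 1.09 in old, 0.65 (adjusted p = 0.00142) in disuse and 0.62 (adjusted p = 0.0494) in young samples. Over all alternatives tried, the adjusted p ranged between 0.00142 and 0.711 for disuse and between 0.0494 and 0.962 for young samples. In the old samples the log2 fold change was 0.37 with no filter on low counts.

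**Figure D1:**
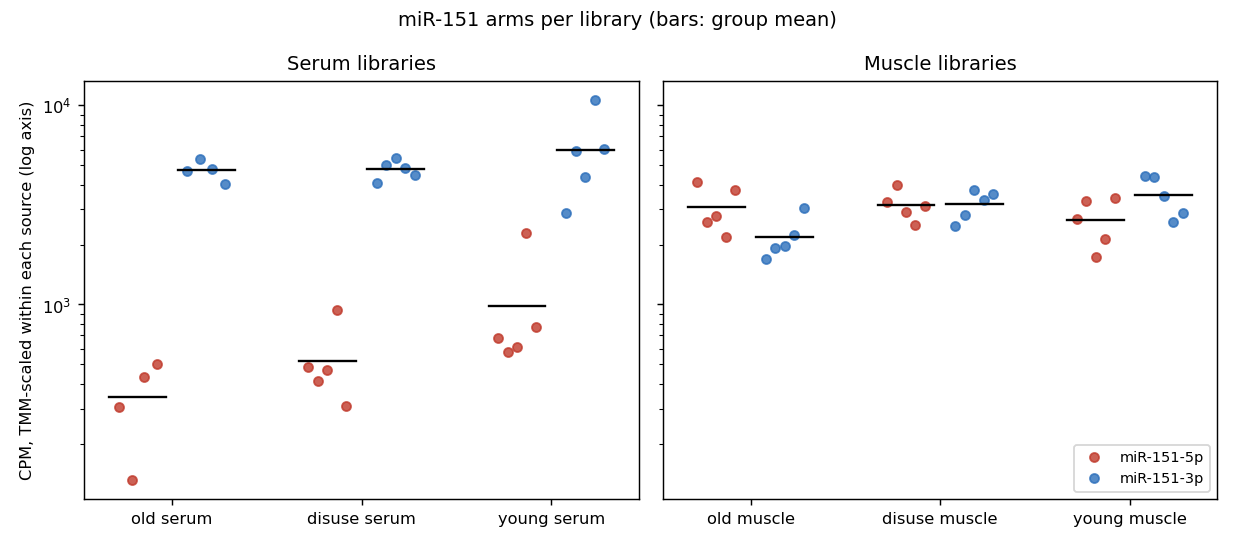
CPM of miR-151-5p and miR-151-3p in each library on a log axis, scaled by TMM within the serum libraries and within the muscle libraries, with points for libraries and bars for group means. In serum every library holds less miR-151-5p (132 to 2297 CPM) than miR-151-3p (2872 to 10640 CPM), and in muscle the ranges of the arms overlap (1728 to 4143 and 1702 to 4419 CPM).

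The share of 5p counts among the counts of both arms is a quantity within a library, so scaling does not touch it. In old serum the 5p arm made up 2.39%, 6.08%, 8.25% and 11.1% of the miR-151 counts, and in old muscle 49.6%, 55.3%, 57.5%, 58.5% and 70.9%. In disuse serum the shares were 6.47%, 7.63%, 7.86%, 10.6% and 16.3%, against 42.7%, 43.7%, 46.5%, 56.7% and 58.5% in disuse muscle. In young serum they were 8.85%, 11.3%, 12.2%, 17.8% and 19.0%, against 33.1%, 37.8%, 42.9%, 45.1% and 54.2% in young muscle. No serum library reached the share of any muscle library: most miR-151 counts in serum came from the 3p arm, while in muscle the 5p share lay between 33.1% and 70.9%. How many other hairpins separate like this between the sources was not counted.

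Mean shares were 6.96% ± 3.68 in old serum (SD, n = 4) and 58.4% ± 7.80 in old muscle (n = 5), a difference of -51.4 percentage points. They were 9.77% ± 3.94 in disuse serum and 49.6% ± 7.44 in disuse muscle (n = 5 each), a difference of -39.9, and 13.8% ± 4.38 in young serum and 42.6% ± 7.95 in young muscle (n = 5 each), a difference of -28.8. In the disuse and in the young samples the difference had an adjusted p of 0.0278 in a two-sided exact permutation test, adjusted over 7 comparisons of the share. The 7 include old serum against old muscle, whose exact p is not given but entered the adjustment. The adjusted p-values of the share are therefore not independent of the choice of the arms. The unadjusted exact p was 0.00794 in both, the smallest the group sizes allow. The difference in the old samples is a description, and lay between -53.6 and -48.3 points when 1 library was left out.

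Counting error is small beside these gaps but not beside the spread within serum. Old serum 2 held 25 counts of miR-151-5p and 1022 of miR-151-3p, a share with a Wilson interval of 1.62% to 3.50% at 95% confidence, and old serum 4 held 23 and 184, with an interval of 7.52% to 16.1%. In muscle the shallowest library, disuse muscle 3, held 725 and 936 counts (41.3% to 46.0%), and the deepest, old muscle 1, held 22968 and 9433 (70.4% to 71.4%). These intervals hold counting error alone: copies made by PCR carry no molecular identifiers and are not independent molecules.

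**Figure D2:**
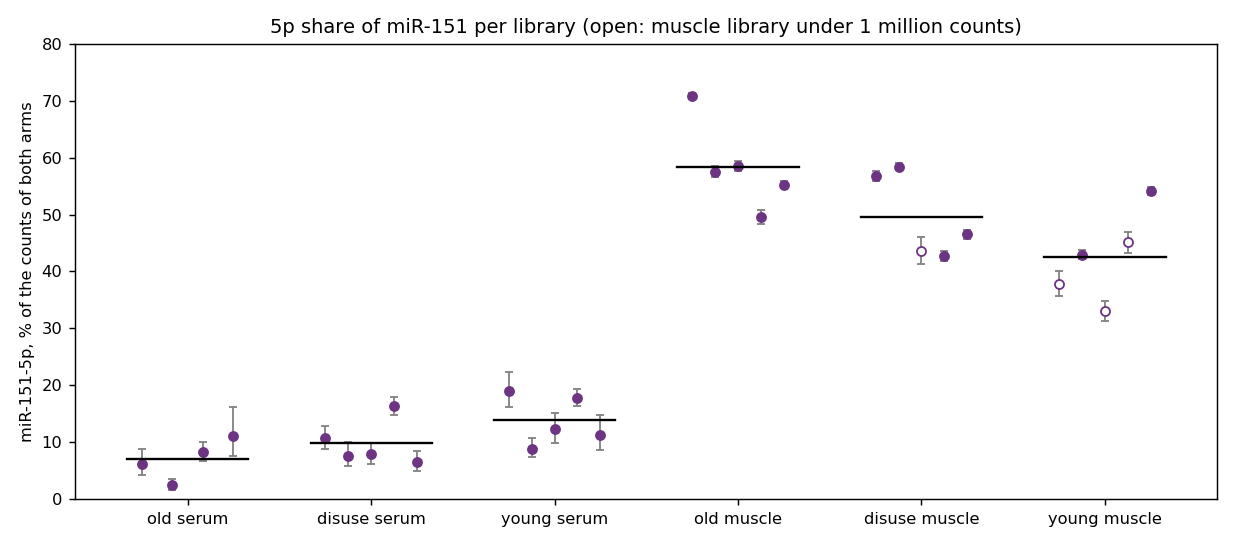
Share of miR-151-5p in the counts of both miR-151 arms, in percent, for each library of the 6 groups, with Wilson intervals at 95% confidence, group means as bars, and open points for the 4 muscle libraries under 1000000 counts. Serum libraries lie between 2.39% and 19.0% and muscle libraries between 33.1% and 70.9%.

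Most hairpins were counted almost wholly on one arm, and miR-151 in muscle was not. Where both arms were named in the table and summed to at least 100 counts in every library of a group, 41 hairpins could be read in young muscle: 21 with a mean 5p share over 80%, 16 under 20% and 4 between. miR-151 was among the 4 in young muscle, among 12 of 74 in old muscle and among 4 of 42 in disuse muscle. In serum it was among the hairpins under 20%, which were 12 of 32 in old, 15 of 41 in disuse and 11 of 33 in young serum. The spread of its share over libraries was wide in each muscle group: in disuse muscle no hairpin had a larger SD, in young muscle 1 did and in old muscle 3 did, where the median SD over hairpins was 0.252, 0.400 and 0.806 percentage points. In serum 2 hairpins had a larger SD in old, 1 in disuse and 1 in young samples. Most hairpins lay over 80% or under 20%, where an SD in percentage points is held small, so these ranks favour mixed hairpins.

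At that minimum of 100 counts, no hairpin readable in both sources had a larger decrease of its 5p share in serum against muscle than miR-151, of 23 in the old, 27 in the disuse and 22 in the young samples. The median difference over those hairpins was 0.037, 0.050 and 0.069 percentage points. In the young samples 1 hairpin, miR-423, moved further in the other direction, with a 5p share of 71.5% in serum and 31.8% in muscle. It was named after its values were seen. At a minimum of 30 counts, 1 of 41 hairpins in the old and 1 of 40 in the young samples had a larger decrease than miR-151, and 0 of 46 in the disuse samples. At 100 counts few hairpins had a mean share between 20% and 80% in either source. They were 3 of 23 in the old, 4 of 27 in the disuse and 3 of 22 in the young samples, miR-151 among them. A share near either end moves little in percentage points for a given fold change of an arm, which favours mixed hairpins. By ratio, miR-25 fell further in the young samples, from 4.89% in muscle to 0.363% in serum. So did miR-29a (0.712% to 0.0365%), miR-143 (1.10% to 0%), miR-23a (0.241% to 0%) and miR-27b (0.19% to 0.059%). These hairpins too were named after their values were seen. In the young samples the first rank of miR-151 thus holds in percentage points, not by ratio. These ranks describe where miR-151 lies and carry no test.

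**Figure D3:**
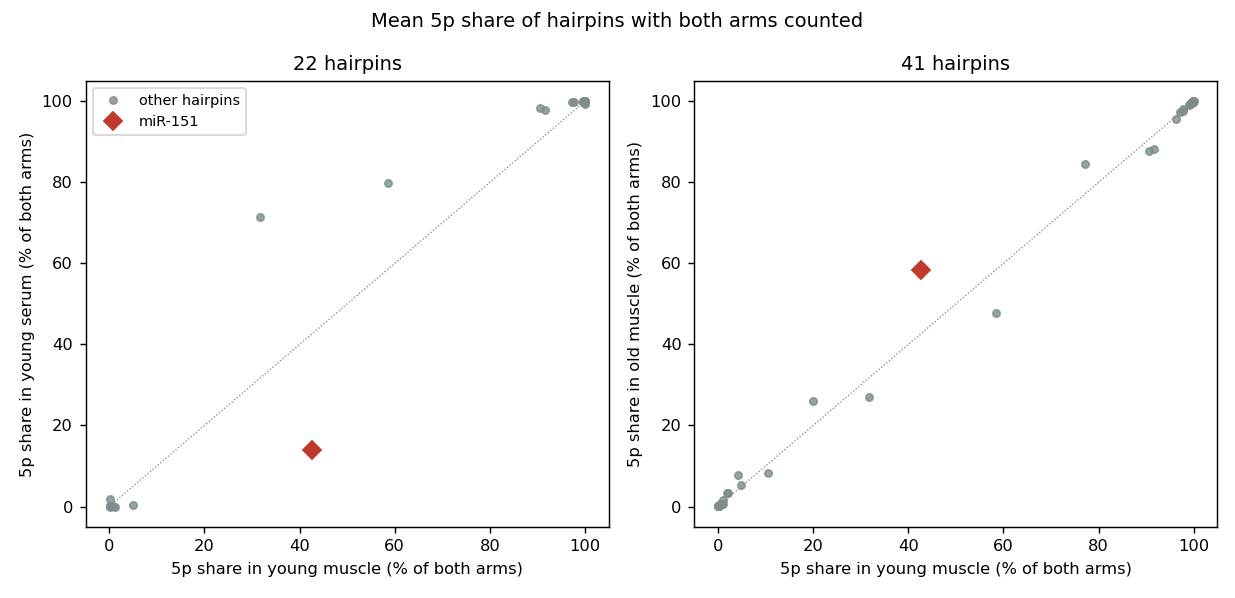
Mean share of 5p counts in percent for each hairpin with at least 100 counts over both arms in every library, young serum against young muscle for 22 hairpins (left) and old muscle against young muscle for 41 (right), with the dotted line marking equal shares. Most hairpins sit at the corners, while miR-151 lies below the line in serum and above it in old muscle.

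Old muscle set against young muscle shows how the arms differ with age in the tissue. The arms parted: miR-151-3p fell and miR-151-5p did not pass. miR-151-3p was counted at 1702, 1918, 1965, 2223 and 3045 CPM in old muscle, against 2584, 2886, 3493, 4378 and 4419 CPM in young muscle. All 5 old libraries lay below the young median, and the highest old library overlapped the 2 lowest young ones. Old muscle had a mean of 2171 ± 523 CPM and young muscle of 3552 ± 839 CPM (SD, n = 5 for both), and the log2 fold change was -0.71 ± 0.19 (SE; edgeR, adjusted p = 0.0223 over 341 miRNAs). In this comparison 4.69% of all tested miRNAs passed as lower, 1.17% as higher and 5.87% in either direction, and 34 miRNAs had a lower log2 fold change.

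miR-151-5p was counted at 2189, 2597, 2773, 3764 and 4143 CPM in old muscle and at 1728, 2124, 2688, 3295 and 3408 CPM in young muscle. The groups overlapped over most of their range. Old muscle had a mean of 3093 ± 825 CPM and young muscle of 2649 ± 728 CPM (n = 5 for both), and the log2 fold change of 0.22 ± 0.21 did not pass (edgeR, adjusted p = 0.567). Within libraries, miR-151-3p was the scarcer arm in 4 of 5 old libraries and the more abundant in 4 of 5 young libraries.

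The 5p share was 58.4% ± 7.80 in old and 42.6% ± 7.95 in young muscle (SD, n = 5 each), 15.7 percentage points higher in old muscle (two-sided exact permutation p = 0.0159, adjusted p = 0.0278 over the same 7 comparisons). It was above the young median in 5 of 5 old libraries and above every young library in 4. The call was lost in 8 of 10 cases when 1 library was left out (12.6 to 18.6 points, adjusted p of 0.0278 to 0.0556), and held without old muscle 4 or young muscle 5. Of the 41 hairpins readable in these groups, none changed its mean share by more, their 5th and 95th percentiles were -3.28 and 5.97 points, and the median was 0.046. Only 5 of the 41 had a mean share between 20% and 80% in either group, and shares near the ends move little in percentage points. Depth moved with this result: 3 of the 4 muscle libraries under 1000000 counts are young and the other is disuse muscle 3, and their shares were 33.1% to 45.1%, against 42.7% to 70.9% in the 11 deeper libraries. Among deeper libraries the mean share was 58.4% in 5 old and 48.5% in 2 young libraries, a difference of 9.82 points (exact permutation p = 0.190, where the smallest possible is 0.0952), and the log2 fold change of miR-151-3p was -0.73 (edgeR, adjusted p = 0.0696).

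The call of miR-151-3p also rested on single libraries. It was lost, with its sign kept, without young muscle 1 (-0.56, edgeR adjusted p = 0.118), young muscle 2 (-0.53, 0.120) or any of old muscle 1 to 4 (-0.64 to -0.63, 0.0652 to 0.0901). Over all 17 alternatives its log2 fold change lay between -0.90, with upper-quartile factors that put the median of all miRNAs at -0.21, and -0.53, and its adjusted p between 0.00382 and 0.120.

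Disuse muscle lay between old and young muscle in its 5p share, with 49.6% ± 7.44 against 42.6% ± 7.95 in young muscle (n = 5 each). The difference of 6.99 percentage points did not pass (exact permutation p = 0.167, adjusted p = 0.167). miR-151-5p averaged 3155 ± 536 CPM in disuse and 2649 ± 728 CPM in young muscle (log2 fold change 0.25 ± 0.21, edgeR adjusted p = 0.773). miR-151-3p averaged 3204 ± 532 CPM in disuse and 3552 ± 839 CPM in young muscle (-0.15 ± 0.19, edgeR adjusted p = 0.856). In this comparison 0.293% of miRNAs, a single one, passed. Among libraries of at least 1000000 counts the log2 fold change of miR-151-5p was -0.02 in disuse against young muscle and -0.10 in old against young muscle, where all libraries gave 0.25 and 0.22.

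Old muscle was also set against disuse muscle, groups that differ in age as well as in disuse. miR-151-3p had a mean of 2171 ± 523 CPM in old muscle and of 3204 ± 532 CPM in muscle after disuse (n = 5 for both); its log2 fold change of -0.56 ± 0.19 did not pass (edgeR, adjusted p = 0.117), although all 5 old libraries lay below the disuse median. It passed without old muscle 5 (-0.72, adjusted p = 0.0297), the old library with the most miR-151-3p; over the alternatives the adjusted p was 0.0297 to 0.356. miR-151-5p was at -0.03 ± 0.21 (edgeR, adjusted p = 0.987). The 5p share was 8.74 percentage points higher in old muscle (exact permutation p = 0.0952, adjusted p = 0.133), and 3.52% of miRNAs passed in this comparison, 2.93% as lower and 0.587% as higher.

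In order of mean level in muscle, miR-151-5p was highest in disuse (3155 CPM), then old (3093 CPM) and young (2649 CPM), and neighbours in that order differ by less than their SDs. The order of miR-151-3p was young (3552 CPM), disuse (3204 CPM) and old (2171 CPM), and of its 2 steps the one between disuse and old exceeded the SDs.

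In serum the levels follow as a description where old serum is involved. miR-151-5p was counted at 132, 304, 433 and 504 CPM in old serum, at 308, 414, 466, 487 and 936 CPM in disuse serum and at 576, 613, 676, 767 and 2297 CPM in young serum. All 4 old libraries lay below all 5 young libraries, and how many of all tested miRNAs separate like this was not counted. The counts behind these values were 23 to 89 in old, 49 to 344 in disuse and 46 to 472 in young serum. The log2 fold change of old against young serum was -1.58 ± 0.48 (SE), and 4 of 165 tested miRNAs had a lower one; in this comparison, from which the arm was known, 9.70% of miRNAs passed in either direction, 7.27% as lower and 2.42% as higher.

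Young serum 4 decides part of that size. Its 2297 CPM of miR-151-5p compares with 767 CPM in the next young library, and without it the log2 fold change was -0.99. The same library had the most miR-151-3p of all serum libraries, 10640 CPM. It also had the highest summed level in serum of the listed erythrocyte miRNAs, 564600 CPM scaled by library totals, and of the listed platelet miRNAs, 118000 CPM, against ranges of 354500 to 428900 CPM and 49140 to 87710 CPM in the other 4 young libraries. It had the lowest summed level of the striated muscle list, 636 CPM. The defining red cell member, miR-451a, averaged 12440 CPM over young serum, so other members carried most of the erythrocyte sum. The part of the listed miRNAs and their cells in the miR-151 level of this library was not tested.

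miR-151-3p varied less. It was counted at 4034, 4697, 4812 and 5376 CPM in old serum, at 4097, 4446, 4821, 5009 and 5464 CPM in disuse serum and at 2872, 4392, 5931, 6054 and 10640 CPM in young serum. The young range holds every old and disuse value. The log2 fold change of old against young serum was -0.34 ± 0.28 (SE), against -0.03 without young serum 4.

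Disuse serum was tested against young serum, but the young libraries entered the choice of the arms. The test is therefore not independent of that choice. miR-151-5p averaged 522 ± 242 CPM in disuse and 986 ± 737 CPM in young serum (n = 5 each), a log2 fold change of -0.91 ± 0.42 that did not pass (edgeR, unadjusted p = 0.0445, adjusted p = 0.380 over 165 miRNAs). Without young serum 4 it was -0.29. miR-151-3p averaged 4767 ± 524 CPM in disuse and 5977 ± 2910 CPM in young serum (-0.33 ± 0.27, edgeR adjusted p = 0.705). In this comparison 0% of miRNAs passed in edgeR and 0 in DESeq2, and 20 had an unadjusted p under 0.05 in edgeR. The comparison shares its young libraries with that of old serum.

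The 5p share of miR-151 was 6.96% ± 3.68 in old serum (SD, n = 4), 9.77% ± 3.94 in disuse serum and 13.8% ± 4.38 in young serum (n = 5 each). All 4 old libraries lay below the young median and 3 below every young library; the difference of -6.87 percentage points is given without a test. The difference between disuse and young serum was -4.06 points (exact permutation p = 0.159, adjusted p = 0.167). It passed without disuse serum 4 (-5.68 points, adjusted p = 0.0444), the disuse library with the highest share, and over the alternatives the adjusted p was 0.0444 to 0.317. Among 31 hairpins readable in old and young serum none changed its share by more than miR-151 at a minimum of 100 counts, and 1 of 45 did at a minimum of 30 counts. The median change was 0 points at both. This rank comes from the libraries by which the arms were chosen, so it is no independent result. At 100 counts 2 of the 31 hairpins had a mean share between 20% and 80% in either group.

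Old serum lay below disuse serum in miR-151-5p by a log2 fold change of -0.66 ± 0.47 (SE) and had a difference in the 5p share of -2.82 percentage points, with overlapping libraries. Both rest on single libraries: they were -0.34 and -1.19 points without disuse serum 4, and -0.38 and -1.29 points without old serum 2. Pooled counts of each group gave -5.51 points. miR-151-3p was at -0.01 ± 0.28. In this comparison 2.42% of miRNAs passed, 1.82% as higher and 0.606% as lower.

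Blood cell miRNAs were set beside the serum values. Of the 8 tested members of the erythrocyte list, 2 were lower and 0 higher in old than in young serum, with a median log2 fold change of -0.34, where 7.27% of all tested miRNAs passed as lower. The 16 calls of that comparison were 1 without old serum 2 and 5 with library totals. The list's summed level was 230000 to 426800 CPM in old and 354500 to 564600 CPM in young serum. Its defining member miR-451a, a small part of these sums, averaged 6624 ± 1839 CPM in old (n = 4) and 12440 ± 7373 CPM in young serum (n = 5). Of the 5 platelet miRNAs, 0 passed (median 0.02), with sums of 81200 to 88930 CPM in old and 49140 to 118000 CPM in young serum. The 4 tested leukocyte miRNAs had a median of -0.21 and 0 passed, with sums of 10200 to 21720 CPM in old and 11230 to 18750 CPM in young serum. The defining leukocyte member miR-142-3p averaged 84.2 ± 9.91 CPM in old (n = 4) and 137 ± 53.8 CPM in young serum (n = 5). Of the 3 hepatocyte miRNAs 1 was higher (median 0.09), where 2.42% of all tested miRNAs passed as higher, with sums of 13660 to 24800 CPM in old and 7224 to 15790 CPM in young serum. The part of these cells in the levels of miR-151 was not tested. In these bulk samples, fewer cells of a type and less RNA per cell cannot be told apart.

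In muscle, 0 of 6 erythrocyte, 0 of 5 platelet, 0 of 2 hepatocyte and 0 of 6 striated muscle miRNAs passed between old and young, and 1 of 5 leukocyte miRNAs was higher. Of all tested miRNAs, 1.17% passed as higher and 4.69% as lower in this comparison. The summed erythrocyte list was 73810 to 108400 CPM in old and 82780 to 153300 CPM in young muscle, where its defining member miR-451a averaged 46.6 ± 13.1 CPM in old and 56.3 ± 34.7 CPM in young (n = 5 for both). The summed leukocyte list was 20420 to 32300 CPM in old and 13790 to 29810 CPM in young muscle. Their part in the fall of miR-151-3p was not tested.

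**Figure D4:**
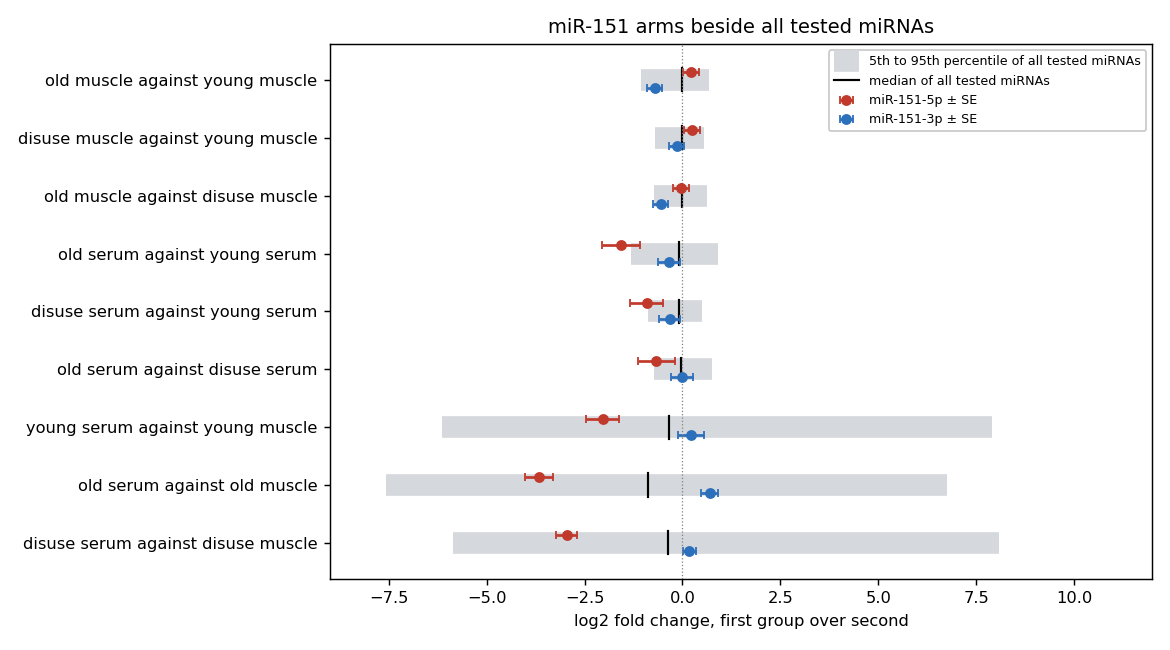
Log2 fold change ± SE of miR-151-5p and miR-151-3p in 9 comparisons, with grey bars from the 5th to the 95th percentile of all tested miRNAs and a tick at their median. miR-151-5p lies left of miR-151-3p in serum comparisons and in serum against muscle, and right of it in old against young muscle (0.22 and -0.71).

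In muscle the 2 arms did not follow each other from library to library. Log2 CPM of each miRNA were centred on the mean of the libraries of a source, and profiles were compared by their root mean square difference. Over the 15 muscle libraries the arms differed by 0.56 on the log2 scale, more than the SD of either alone, 0.34 for miR-151-5p and 0.41 for miR-151-3p. Of 340 other miRNAs, 171 lay nearer to miR-151-5p than its partner arm did. Nearest to miR-151-5p were let-7d-5p (0.15), miR-133a-3p (0.20) and miR-25-3p (0.22), and nearest to miR-151-3p were let-7d-3p (0.22), miR-181a-5p (0.25) and miR-486-5p (0.26), where the median over all miRNAs was 0.56 and 0.65. Of these, miR-133a-3p is on the striated muscle list, and miR-25-3p and miR-486-5p are on the erythrocyte list.

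let-7d belongs to the let-7 family, known for its part in cell differentiation, and its 2 arms were each nearest to the miR-151 arm of the same side. Both let-7d arms were picked by nearness to the miR-151 arms over these same muscle libraries, so their changes follow in part from that choice. They are given as a description with no test. In old against young muscle let-7d-5p had a log2 fold change of 0.08 ± 0.17 (SE) and let-7d-3p of -0.58 ± 0.17. The mean 5p share of let-7d was 84.4% in old and 77.2% in young muscle.

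Over the 14 serum libraries the miR-151 arms differed by 0.80, less than the SD of miR-151-5p, 0.89, and more than that of miR-151-3p, 0.40. Young serum 4 was the highest library for both arms. The difference also holds the unequal SDs, so it does not show whether the arms moved together in serum. Nearest to miR-151-5p were miR-99a-5p (0.55), miR-26a-5p (0.56) and miR-148b-3p (0.57), and nearest to miR-151-3p were miR-99b-5p (0.29), miR-191-5p (0.30), a common reference miRNA, and miR-92a-3p (0.30). Of these, miR-191-5p is also on the platelet list and miR-92a-3p on the erythrocyte list. The medians over all miRNAs were 0.99 and 0.68. Libraries share depth and composition, so nearness here is a description only.

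Of the 6 listed relatives of miR-151, 3 had complete counts. miR-28a, whose hairpin lies in another host gene, was a 3p miRNA in both sources. miR-28a-3p averaged 131 ± 75.6 CPM in old serum (n = 4) and 256 ± 45.8 CPM in old muscle (n = 5), a log2 fold change of -1.48 ± 0.32 (edgeR, adjusted p = 3.65e-04), and it was also lower in disuse serum than in disuse muscle (-2.42 ± 0.34, adjusted p = 4.31e-06) and in young serum than in young muscle (-2.36 ± 0.38, adjusted p = 9.60e-06). miR-28a-5p was counted at 0 to 1 in serum libraries and 0 to 53 in muscle libraries. Between old and young muscle miR-28a-3p was at 0.08 ± 0.18 (edgeR, adjusted p = 0.832) and miR-28a-5p at -0.27 ± 0.39 (adjusted p = 0.717). miR-708-3p had at most 2 counts in a serum library and 5 in a muscle library.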

How the data were processed

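Small RNA libraries were made with a TruSeq kit from Trizol-extracted muscle RNA or kit-extracted serum RNA, at different inputs, and gel-selected, per the labels' protocols. Bowtie and mm10 are named in the submitters' processing notes. Not given in the sources used here: Bowtie's version, the annotation of miRNAs and how reads with several matches were counted. The authors deposited raw counts per mature miRNA and library. Of 1183 miRNAs, 695 have 29 values and were used; 488 have 28 values, hold 0.0518% of muscle counts and were not used. Each of the 29 columns carries the title of its sample.

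The table was tested with edgeR 4.0.16 (glmQLFit, glmQLFTest, TMM, filterByExpr by group, Benjamini-Hochberg adjustment, threshold 0.05) in R 4.3.3. The 15 muscle and the 14 serum libraries were fitted as sets, and serum against muscle within each condition. The SE is the size of the log2 fold change divided by the square root of F. CPM use the TMM factors of the fit they belong to, and levels of marker and relative miRNAs use library totals. The arms in old serum against old muscle were fitted likewise, but are given without p since old serum served to choose them. The 5p share was tested with scipy 1.17.1 (exact permutation, two-sided). Its adjustment also counts old serum against old muscle, whose p is not given. The edgeR procedure was checked on simulated counts. Named miRNAs are the arms, the 3 nearest profiles per arm and source (log2 CPM, prior 0.5) and the listed relatives. Seed sharing was read from RefSeq among the sequences found, which did not include the miR-151 arms. Alternatives were library totals, RLE and upper-quartile factors, DESeq2 1.42.0, no filter, a replicate block, leaving out each library, and other forms of the share. Members, lists and tests were chosen with earlier results of these data known.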

Additional observations from a re-analysis of the deposited data

Results flagged for a closer look

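Of 18 sets of library values checked (CPM of both arms and the 5p share, in 6 groups), 2 held a library far from the others. Chance flags about 1 in 20 sets. miR-151-5p stood at 2297 CPM in young serum 4, where the next young library had 767 CPM. It stood at 936.5 CPM in disuse serum 4, where the next disuse library had 487 CPM. Both are the deepest library of their group, with 290818 and 309133 counts.

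The 5p share moved in opposite directions with age in the 2 sources. It was above the young median in 5 of 5 old muscle libraries and below it in 4 of 4 old serum libraries, and the changes of 15.7 and -6.87 percentage points lie 22.6 points apart. That difference was not tested.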

How the results depend on the processing

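The lower miR-151-5p of serum against muscle passed in every edgeR and DESeq2 alternative run in disuse and young samples. Other results moved. In old against young muscle, libraries of at least 1000000 counts (chosen after the data were seen) gave -0.10 for miR-151-5p, -0.73 for miR-151-3p (no longer passing) and 9.82 points for the 5p share, and -0.018 for miR-151-5p in disuse against young muscle. In old against disuse muscle miR-151-5p turned to 0.042 with library totals, 0.021 with RLE factors, 0.024 with DESeq2 and 0.064 with no filter. For miR-151-3p in serum against muscle, library totals gave 0.62 (young) and 0.65 (disuse), RLE factors 0.38 and DESeq2 0.41 (disuse), all passing, while no filter gave -0.021 (young, not passing) and 0.37 (old, no test). The cause was not tested.

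The replicate numbers were not taken to pair the samples. Deviations from group means correlated between -0.326 and 0.553 over same-numbered libraries. Between muscle groups 0 of 5 libraries correlated best with their own number in each comparison. In serum 3 of 4 did in old against disuse, 2 of 4 in old against young and 1 of 5 in disuse against young. For serum these values do not settle whether the numbers pair the samples. With the replicate block miR-151-3p in old against disuse serum was 0.012, 0 miRNAs passed in disuse against young muscle (1 without) and 0 in old against disuse serum (4 without). A paired permutation of the share kept 15.7 points in old against young muscle, -28.8, -52.2 and -39.9 points in young, old and disuse serum against muscle; with 4 or 5 pairs it cannot go below p = 0.125 or 0.0625, so no call is possible. The block changed no other call of the arms.

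Numbers of miRNAs called were 36 with upper-quartile factors and 33 in DESeq2 for old against young muscle (20 as fitted), 2 with upper-quartile factors and 2 with no filter for disuse against young muscle (1), 5 with library totals for old against young serum (16), 5 with no filter for disuse against young serum (0), 0 with library totals for old against disuse serum (4), 232 in DESeq2 and 270 with no filter for young serum against muscle (145), and 288 and 327 for disuse serum against muscle (166). The median change of the 5p share over hairpins in disuse serum against muscle was -0.012 with a minimum of 30 counts, at which miR-151 lost its first rank as the largest decrease in old against young serum, in old against disuse serum and in old and young serum against muscle.

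Leaving out single libraries gave these ranges. The 5p share: 12.6 to 18.6 (old against young muscle), -5.68 to -2.75 (disuse against young serum), -4.20 to -1.19 (old against disuse serum), -53.6 to -48.3 (old serum against muscle), where fewer libraries also raise the smallest p. miR-151-3p: -0.86 to -0.53 (old against young muscle), -0.72 to -0.43 (old against disuse muscle), -0.081 to 0.05 (old against disuse serum), -0.09 to 0.37 (young serum against muscle), 0.59 to 0.98 (old serum against muscle). miR-151-5p: -0.15 to 0.13 (old against disuse muscle), -1.77 to -0.99 (old against young serum), -1.24 to -0.29 (disuse against young serum), -0.91 to -0.34 (old against disuse serum). Called miRNAs: 0 to 2 (disuse against young muscle), 1 to 20 (old against young serum) and 0 to 3 (old against disuse serum).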
